A study of Mus musculus with 6 samples.

Results

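The genes described here are 17 cytosolic aminoacyl-tRNA synthetases and 22 genes of the amino acid response, in mouse embryonic fibroblasts that carried a hairpin construct labelled shARF or the control hairpin shSCR. The members were taken by gene symbol from the platform's probe-to-gene table, and where a symbol had several probesets the one with the highest mean signal stood for the gene. Of the 39 listed genes, 37 had a probeset annotated to them alone, out of 19288 such genes on the array, and all 37 passed the filter on low signal. Aars shared its probeset with Exosc6, and neither Aars nor Pycr1 was analysed here. The synthetase listed as Mars carries its newer symbol Mars1 below.

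The study profiled total RNA from 3 shARF samples and 3 shSCR samples, labelled as biological replicates, on Affymetrix gene-level arrays. The series title calls the cells of both groups dp53R, and the sample titles of both groups carry the word Ras. ARF, a product of the Cdkn2a locus, is a tumour suppressor, and a short hairpin RNA lowers the messenger RNA that it matches. Both groups were grown in one medium, which held serum, glutamine, nonessential amino acids and pyruvate. The labels do not say whether the replicates came from separate cultures, embryos or clones, so the p-values reflect only how these 6 samples vary, and that variation may be technical.

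Aminoacyl-tRNA synthetases join each amino acid to its transfer RNA and so supply the ribosome. When amino acids run short, uncharged transfer RNA activates the kinase GCN2, which phosphorylates the initiation factor eIF2. General translation then falls while the transcription factor ATF4 is made from its existing messenger RNA. ATF4 binds short elements in its target genes, among them synthetases, amino acid enzymes and transporters. Stress in the endoplasmic reticulum, viral RNA and haem shortage reach the same factor through other kinases. Because ATF4 is set largely by translation, the level of its messenger RNA is no measure of the protein.

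The element that ATF4 and its C/EBP partners bind, often called the amino acid response element or CARE, has the core TGATGNAA. RefSeq promoters of build GRCm38.p6, from 250 bases before to 50 after the transcription start, were searched for these letters on both strands, where the opposite strand reads TTNCATCA. A promoter was given for 31 of the 39 listed genes, and 12 of them (38.7%) held a match, against 1219 of 27025 genes (4.51%) in the whole table. A gene was counted if any of its listed promoters held a match. Per promoter, 1304 of 32851 (3.97%) held one. Among the synthetases 5 of 10 did, and among the response genes 7 of 21. A match is a run of letters and was not tested as a binding site. Members were listed for their link to this response, so their higher share is no independent finding about these promoters. The promoters of 4 response genes are shown whole because their values recur below, with the matched letters in capitals, read 5′ to 3′ on the gene's strand. Nupr1 passed the test of expression, Trib3 and Chac1 had some of the larger differences among the feedback genes, and Asns is the textbook target of the response.
Nupr1, chr7:126625421-126625720, minus strand: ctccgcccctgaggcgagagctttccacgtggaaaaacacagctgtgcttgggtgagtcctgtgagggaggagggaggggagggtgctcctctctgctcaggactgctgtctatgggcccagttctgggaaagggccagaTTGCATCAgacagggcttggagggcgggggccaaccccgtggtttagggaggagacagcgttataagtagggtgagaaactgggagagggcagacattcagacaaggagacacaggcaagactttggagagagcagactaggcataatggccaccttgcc
Trib3, chr2:152344011-152344310, minus strand: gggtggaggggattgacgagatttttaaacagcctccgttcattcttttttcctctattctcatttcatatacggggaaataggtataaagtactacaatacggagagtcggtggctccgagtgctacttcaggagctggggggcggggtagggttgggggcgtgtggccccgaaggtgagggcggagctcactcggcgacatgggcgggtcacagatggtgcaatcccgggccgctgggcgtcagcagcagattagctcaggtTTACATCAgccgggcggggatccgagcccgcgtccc
Chac1, chr2:119350992-119351291, plus strand: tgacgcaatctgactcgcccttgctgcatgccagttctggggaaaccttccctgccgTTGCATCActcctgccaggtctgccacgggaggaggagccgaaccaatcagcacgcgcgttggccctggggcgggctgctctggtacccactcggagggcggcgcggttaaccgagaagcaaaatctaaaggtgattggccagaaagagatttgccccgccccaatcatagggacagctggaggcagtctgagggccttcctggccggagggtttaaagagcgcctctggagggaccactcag
Asns, chr6:7693160-7693459, minus strand: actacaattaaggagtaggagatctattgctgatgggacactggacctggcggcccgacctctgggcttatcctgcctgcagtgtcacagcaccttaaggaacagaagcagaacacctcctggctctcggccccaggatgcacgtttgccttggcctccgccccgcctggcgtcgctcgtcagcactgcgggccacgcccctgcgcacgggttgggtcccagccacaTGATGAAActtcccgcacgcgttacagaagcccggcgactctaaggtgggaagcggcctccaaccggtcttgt

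The match began 110 bases before the start in Nupr1, 193 before it in Chac1 and 23 before it in Asns, and at base 15 after it in Trib3. The next set shows 40 bases around the match in 4 synthetases and 2 further response genes, so that the cores can be set against each other.
Gars, chr6:55037955-55037994, plus strand: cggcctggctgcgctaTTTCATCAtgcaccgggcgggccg
Iars, chr13:49682121-49682160, plus strand: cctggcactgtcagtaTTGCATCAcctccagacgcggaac
Tars, chr15:11399650-11399689, minus strand: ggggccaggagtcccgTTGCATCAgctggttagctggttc
Yars, chr4:129189890-129189929, plus strand: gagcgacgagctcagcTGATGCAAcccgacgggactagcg
Atf3, chr1:191183420-191183459, minus strand: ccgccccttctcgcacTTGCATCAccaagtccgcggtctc
Vldlr, chr19:27216804-27216843, plus strand: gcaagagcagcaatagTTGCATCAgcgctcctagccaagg

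Read in one orientation, the core was TGATGCAA in Iars, Tars, Yars, Atf3 and Vldlr, as in Nupr1 and Chac1. It was TGATGAAA in Gars and Asns and TGATGTAA in Trib3. Vldlr had another listed promoter, which held no match. The promoters of Ddit4, Sesn2, Ddit3, Psph and Atf4 held no match in this window, which says nothing about elements further away.

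The hairpin's target and the identity of the cells were checked first. Cdkn2a was lower on every shARF array and fell by 0.90 on the log2 scale (limma, adjusted p = 0.00459). Over all 15145 genes tested, 607 passed at an adjusted p under 0.05, which is 4.01% (1.62% higher and 2.38% lower in shARF), and the median difference was -0.01. All 12 fibroblast markers were above the detection level on all 6 arrays, while Ptprc, Itgam, Csf1r and Adgre1 of leukocytes, Tek and Emcn of endothelium, Cdh1 of epithelium and Myh3 of muscle were above it on none. Also above it on all 6 arrays were 3 of 8 leukocyte, 3 of 6 endothelial and 3 of 6 epithelial markers. For muscle and neural markers it was 3 of 5 and 5 of 5. This level thus does not show that other cell types were absent. The summed signal of 6 epithelial markers, carried by Krt18 and Krt8, was 340 to 475 in shARF and 231 to 263 in shSCR. That of 5 neural markers was 1128 to 1215 in shARF and 1060 to 1077 in shSCR. Krt18, Nefl and the fibroblast gene Lum rose. Of the fibroblast markers 5 were higher and 3 lower without overlap, where 12.0% and 16.6% of all genes were. Of the neural markers 2 were higher and 1 lower without overlap, and of the 5 tested epithelial markers 3 were higher and 0 lower. Of 4 tested endothelial markers 1, Cdh5, was higher, and of 4 tested leukocyte markers 1, Cd68, was lower. The lower ones, Thy1, Pdgfra and Fap of fibroblasts, the leukocyte Cd68 and the neural Tubb3, did not pass. The fibroblast, leukocyte, endothelial and muscle sums overlapped between the groups. The part of these shifts in the results below was not tested, and in bulk RNA a change in the share of some cells and a change per cell cannot be told apart.

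None of the cytosolic synthetases passed limma's test. Of the 16 measured 0 passed, where 4.01% of all genes did, and at an unadjusted p under 0.05, 0 were higher and 1 lower, where 8.76% and 13.4% of all genes were. A count of 0 in a list of this size lies near the share of all genes, and 0 passed with an intensity trend and robust prior in limma. The differences ran from -0.15 to 0.16 on the log2 scale, with a median of 0.06. Of them 11 were above 0 and 5 below, beside 46.8% of all genes above 0. On single arrays the median of the list, relative to the shSCR mean of each gene, was -0.02, 0.15 and 0.04 in shARF replicates 1, 2 and 3 and -0.05, 0.03 and 0.02 in shSCR replicates 1, 2 and 3. The groups thus overlapped, and shARF replicate 2 stood above the other 5 arrays. It held the highest shARF value for 14 of the 16 synthetases, while the same array was highest for 39.0% of all genes. Without it the median was 0.01.

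**Figure D1:**
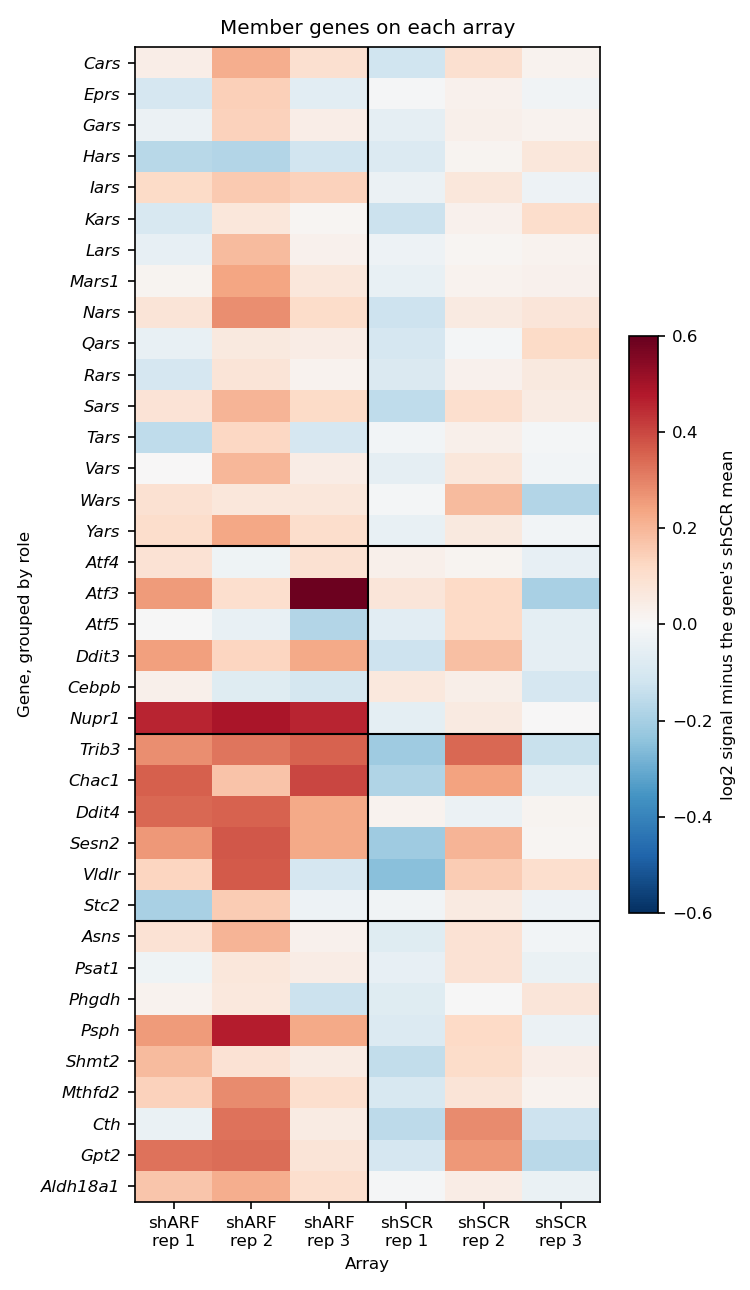
Log2 signal of each measured member minus its mean over the shSCR arrays (colour, from -0.6 to 0.6), with the 3 shARF arrays on the left and the 3 shSCR arrays on the right; rows are genes grouped by role. Nupr1 and Ddit4 are above all shSCR arrays on each shARF array, and many feedback and enzyme genes are also raised on shSCR replicate 2.

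The groups did not overlap for 4 of the 16 synthetases, 3 higher and 1 lower in shARF, where 28.6% of all genes did not overlap (12.0% higher and 16.6% lower). Yars, which charges tyrosine, gave signals of 523, 570.5 and 523 in shARF, against 471, 507 and 481 in shSCR. The lowest shARF array thus lay just above the highest shSCR array, and the difference of 0.15 ± 0.066 (SE) did not pass (limma, adjusted p = 0.261). Nars, which charges asparagine, gave 1822, 2099 and 1865 in shARF, against 1586, 1791 and 1814 in shSCR, again with a narrow gap. The difference of 0.16 ± 0.084 did not pass (limma, adjusted p = 0.343). Hars, which charges histidine, was the synthetase lower in shARF without overlap, at 799, 793 and 828 in shARF, against 846, 906 and 938 in shSCR. Every shARF array was below every shSCR array, and the difference of -0.15 ± 0.064 did not pass (limma, adjusted p = 0.236).

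Iars, which charges isoleucine and holds a core match near its start, had a pair of probesets that disagreed in sign. The brighter one gave 1733, 1787 and 1763 in shARF, against 1562, 1677 and 1569 in shSCR, a difference of 0.14 ± 0.059 (limma, adjusted p = 0.247). The other gave 984, 1033 and 1032 in shARF, against 1051, 1125 and 1017 in shSCR, a difference of -0.07 ± 0.064 (limma, adjusted p = 0.598). Neither passed, and Iars is therefore uncertain in direction. It had the third non-overlapping higher value of the list by its brighter probeset.

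Wars, which charges tryptophan, is also known as an interferon-inducible gene, and it is reported apart for that reason. Its signals were 749.7, 739 and 738 in shARF, against 698, 804 and 623 in shSCR. The shARF arrays lay close together, inside the wide range of the shSCR arrays. The difference was 0.08 ± 0.095, with a 95% interval of -0.15 to 0.30 (limma, adjusted p = 0.6895). On the same arrays 15 of 15 measured interferon-stimulated genes rose by limma's test, where 1.62% of all genes did. Their rises were 0.91 to 3.21 on the log2 scale, and Ifit3, Ifit1, Ifih1 and Zbp1 were among them. That list was chosen with the interferon result of these data known. The synthetase of the same amino acid in mitochondria, Wars2, fell, as given below.

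The remaining synthetases had overlapping groups. Sars, Cars and Mars1, for serine, cysteine and methionine, differed by 0.13 ± 0.083, 0.12 ± 0.081 and 0.11 ± 0.074. Vars, Lars, Gars and Qars, for valine, leucine, glycine and glutamine, differed by 0.08, 0.05, 0.05 and 0.02. Gars, whose promoter holds the core, gave 1363, 1534 and 1436 in shARF, against 1344, 1428 and 1417 in shSCR. Eprs, the fused enzyme for glutamate and proline, Kars for lysine and Rars for arginine differed by -0.01, -0.00 and -0.00, and Tars for threonine by -0.04. The highest shARF signal of Tars, 892, came from replicate 2, and the other shARF arrays gave 738 and 764 against 808, 838 and 811 in shSCR.

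The 21 measured genes of the amino acid response had mostly positive differences, and 2 of them, Nupr1 and Ddit4, passed. That is 9.52% where 4.01% of all genes passed, or 2 higher where 1.62% of all genes were higher, and the count rests on few genes. Of the differences 17 were above 0 and 4 below, with a median of 0.16 and a range of -0.07 to 0.47, beside 46.8% of all genes above 0. At an unadjusted p under 0.05, 6 were higher and 0 lower, where 8.76% and 13.4% of all genes were. The groups did not overlap for 6 of the 21, all higher in shARF, or 28.6%, where 12.0% of all genes were. These were Nupr1, Ddit4, Sesn2, Psph, Mthfd2 and Aldh18a1. The list medians per array were 0.16, 0.21 and 0.09 in shARF replicates 1, 2 and 3 and -0.07, 0.11 and -0.04 in shSCR replicates 1, 2 and 3. The shSCR replicate 2 array thus lay above the lowest shARF array.

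**Figure D2:**
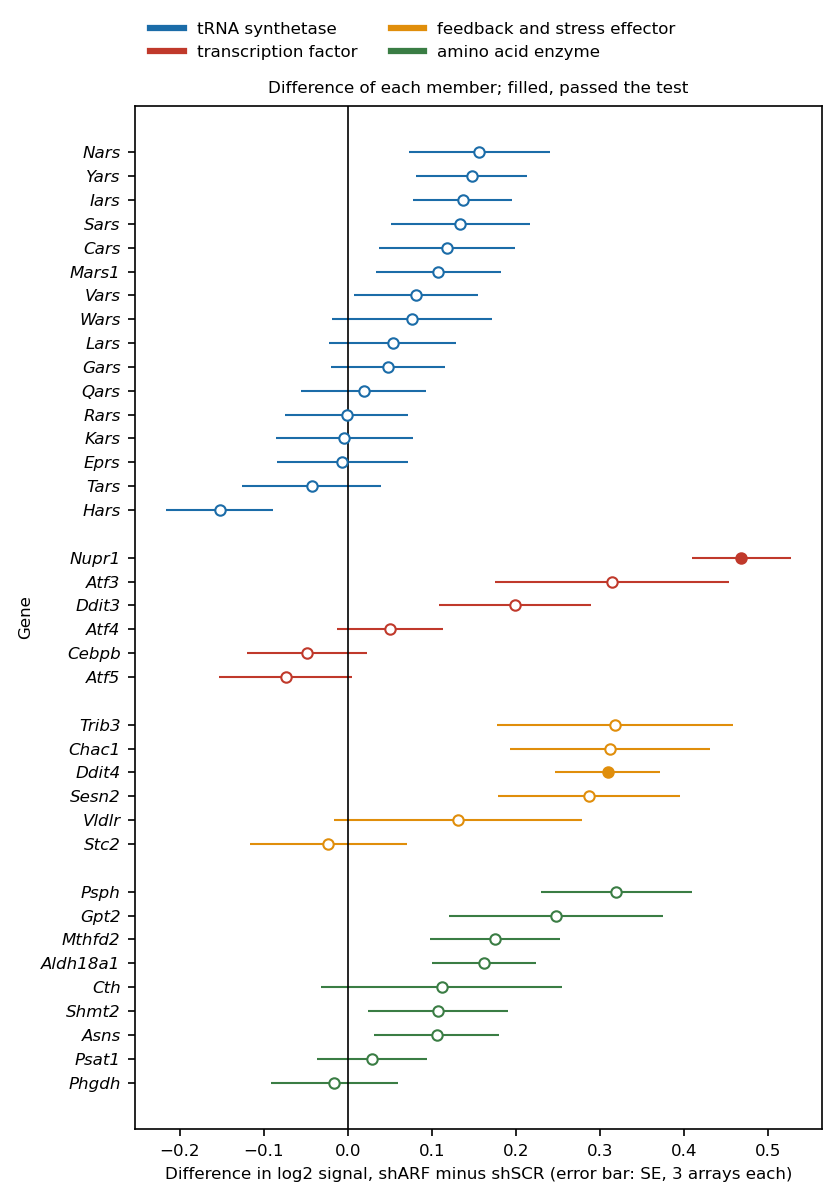
Difference in log2 signal, shARF minus shSCR, of each measured member (point) with its SE (bar), for 3 arrays a group, grouped by role and sorted within it. The filled points, Nupr1 at 0.47 and Ddit4 at 0.31, passed the test; the synthetases lie between -0.15 and 0.16.

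Among the transcription factors Nupr1 rose and the others did not pass. Nupr1 encodes a small stress-induced chromatin protein that is known to act downstream of ATF4. Its signals were 1191, 1216 and 1188 in shARF, against 833, 900.3 and 866 in shSCR. The shARF arrays were close to each other and all above the highest shSCR array. The level averaged 1198 ± 15.6 in shARF and 867 ± 33.7 in shSCR (SD, n = 3 each), a rise of 0.47 ± 0.059 on the log2 scale or 1.38-fold (limma, adjusted p = 0.0102). Without any 1 array the difference stayed between 0.44 and 0.50. Leaving out shSCR replicate 3 took the adjusted p to 0.0508, and leaving out both replicate 2 arrays took it to 0.0761.

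Atf4 itself gave 1443, 1337 and 1450.3 in shARF, against 1392, 1376 and 1316 in shSCR. The groups overlapped and the difference was 0.05 ± 0.063, with a 95% interval of -0.10 to 0.20 (limma, adjusted p = 0.689). Ddit3, which encodes CHOP, the partner of ATF4 in stress-induced death, gave 601, 554 and 593 in shARF, against 465, 574 and 489 in shSCR. Its shSCR replicate 2 lay inside the shARF range, and the difference of 0.20 ± 0.090 did not pass (limma, adjusted p = 0.268). Atf3, an early stress-induced factor, gave 134, 119.8 and 168 in shARF, against 118, 122 and 97.8 in shSCR. Those groups overlapped, with a difference of 0.31 ± 0.139 (limma, adjusted p = 0.258). Atf5, a relative of ATF4 that is controlled by translation in a like way, and Cebpb, a C/EBP partner of ATF4, differed by -0.07 ± 0.079 and -0.05 ± 0.071.

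Among the feedback and effector genes Ddit4 rose, and 4 others differed by 0.13 to 0.32 without passing. Ddit4 encodes REDD1, which restrains the growth kinase mTORC1. Its signals were 94.9, 95.6 and 87.4 in shARF, against 75.8, 72.9 and 75.5 in shSCR, with a clear gap between the groups. The level averaged 92.6 ± 4.55 in shARF and 74.7 ± 1.56 in shSCR (SD, n = 3 each). The rise was 0.31 ± 0.063 on the log2 scale, or 1.24-fold (limma, adjusted p = 0.0456). The call lay close to the threshold and was lost on leaving out any 1 array (limma, adjusted p from 0.0706 to 0.133), without a filter on low signal (0.0782) and without both replicate 2 arrays (0.224).

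Trib3, Chac1 and Sesn2 shared a pattern in which shSCR replicate 2 lay near the shARF arrays. Trib3 encodes a pseudokinase that is induced by ATF4 and CHOP and dampens both. It gave 218, 224 and 229.9 in shARF, against 155, 228 and 164 in shSCR. The other shSCR arrays were well below all shARF arrays, and the difference was 0.32 ± 0.140 (limma, adjusted p = 0.258). Without shSCR replicate 2 it was 0.49, and the gene passed (limma, adjusted p = 0.0314, in a range of 0.0314 to 0.486 on leaving out 1 array). Without both replicate 2 arrays it was 0.49, short of the threshold (limma, adjusted p = 0.0850).

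Chac1, an enzyme that breaks down glutathione, gave 375, 329.5 and 386 in shARF, against 258, 345 and 281 in shSCR. The highest shSCR array exceeded the lowest shARF array, both of them replicate 2, and the difference was 0.31 ± 0.119 (limma, adjusted p = 0.1996). Without shSCR replicate 2 it was 0.43, short of the threshold (limma, adjusted p = 0.0948). Sesn2, a leucine-binding protein that restrains mTORC1, gave 176, 190.1 and 172 in shARF, against 127, 169 and 148 in shSCR. The groups were separate by a narrow margin, with a difference of 0.29 ± 0.108 (limma, adjusted p = 0.196). Vldlr, a lipoprotein receptor induced through ATF4, and Stc2, a secreted stress-induced glycoprotein, differed by 0.13 ± 0.147 and -0.02 ± 0.093.

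**Figure D3:**
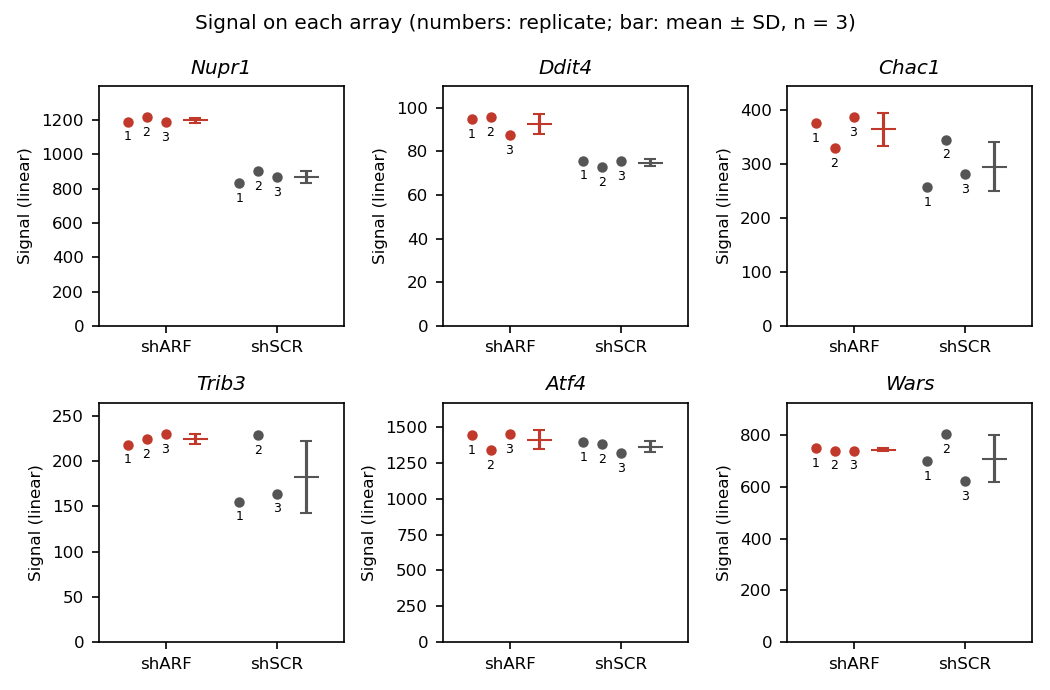
Linear signal (vertical axis, from 0) of 6 members on each array, shARF left and shSCR right; points are arrays numbered by replicate and bars are mean ± SD (n = 3). Nupr1 and Ddit4 are separate between the groups, Trib3 and Chac1 overlap through shSCR replicate 2, and Atf4 and Wars overlap.

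Of the 9 measured enzymes, 0 passed limma's test, where 4.01% of all genes did. At an unadjusted p under 0.05, 2 were higher and 0 lower, where 8.76% and 13.4% of all genes were. Of the 9 differences 8 were above 0, beside 46.8% of all genes. With an intensity trend and robust prior in limma 1 enzyme passed, Psph, where 8.46% of all genes did. Psph makes serine in the last step of its synthesis. It gave 751, 873 and 737 in shARF, against 595, 682 and 613 in shSCR. All shARF arrays were above all shSCR arrays, and the difference was 0.32 ± 0.090 (limma, adjusted p = 0.108, and 0.0226 with the trend). The earlier enzymes of the same route had differences near 0. Phgdh, the first enzyme, differed by -0.02 ± 0.075 and Psat1, the next, by 0.03 ± 0.065.

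The mitochondrial one-carbon enzymes that use serine were Shmt2 and Mthfd2. Mthfd2 gave 479, 529 and 466 in shARF, against 406, 458 and 441 in shSCR, so the groups were separate, and the difference of 0.18 ± 0.077 did not pass (limma, adjusted p = 0.256). Shmt2 overlapped, with a difference of 0.11 ± 0.083. Aldh18a1, which starts proline synthesis from glutamate, gave 721, 749 and 690.2 in shARF, against 639.9, 664 and 626 in shSCR. It was separate too, at 0.16 ± 0.062 (limma, adjusted p = 0.198). Asns, which makes asparagine, gave 1715, 1865 and 1646 in shARF, against 1536, 1719 and 1601 in shSCR. It overlapped between the groups, with a difference of 0.11 ± 0.075 and a 95% interval of -0.07 to 0.28 (limma, adjusted p = 0.463). Gpt2, a mitochondrial alanine transaminase, and Cth, which makes cysteine, differed by 0.25 ± 0.127 and 0.11 ± 0.143, and in both shSCR replicate 2 lay inside the shARF range.

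The replicate 2 array of shSCR recurs in these sentences because it was the highest shSCR array for 17 of the 21 response genes, or 81.0%, where it was the highest for 33.9% of all genes. It held that place for 9 of the 16 synthetases, for 11 of 12 genes of the endoplasmic reticulum stress response outside the ATF4 arm, and for 14 of 15 interferon-stimulated genes. In shARF, replicate 2 was the highest array for 13 of the 21 response genes, or 61.9%, where it was for 39.0% of all genes. Without shSCR replicate 2 the median of the response genes was 0.21, without both replicate 2 arrays 0.16, and without any 1 array it stayed between 0.12 and 0.21. What set that array apart was not tested.

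Other genes of the pathway were taken from lists written for comparison. Of 23 further ATF4-linked genes 1 rose and 0 fell by limma's test, or 4.35%, near the 4.01% of all genes. At an unadjusted p under 0.05, 9 were higher and 2 lower, where 8.76% and 13.4% of all genes were. The groups did not overlap for 10 higher and 3 lower genes, where 12.0% and 16.6% of all genes did not, and the median difference was 0.15. The gene that rose was Gadd45a, a growth arrest gene also induced by p53, which gave 176, 179 and 199.9 in shARF, against 105, 146 and 117 in shSCR. Every shARF array was above the shSCR arrays, a rise of 0.61 ± 0.124 (limma, adjusted p = 0.0469). On leaving out 1 array the call was kept without shSCR replicate 2 and lost in the other 5 cases (limma, adjusted p from 0.0218 to 0.149), and it was lost without both replicate 2 arrays (0.0649) or without a filter on low signal (0.0690). Aldh1l2, the mitochondrial folate dehydrogenase, differed by 0.48 ± 0.109 (limma, adjusted p = 0.0629). It passed with signal above the array median on at least 3 arrays (0.0336), with a pseudocount of 16 (0.0271) and with the intensity trend (0.0094), and on leaving out 1 array its adjusted p ran from 0.0647 to 0.171. Slc7a1, a transporter of basic amino acids, differed by 0.28 ± 0.077 and passed with the intensity trend alone (limma, adjusted p = 0.0304). Ero1a differed by 0.24 ± 0.067 and also passed with the intensity trend alone (limma, adjusted p = 0.0262). The translation repressor gene Eif4ebp1 was separate between the groups at 0.26 ± 0.074. The 3 genes lower without overlap were Shmt1, Slc38a2 and Slc3a2, at -0.21 ± 0.075, -0.15 ± 0.060 and -0.10 ± 0.055. None of these passed.

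Upstream, 1 of 14 genes for eIF2 kinases, eIF2, its exchange factor and its phosphatases passed, or 7.14%, where 4.01% of all genes did. At an unadjusted p under 0.05, 2 were higher and 1 lower, where 8.76% and 13.4% of all genes were. The groups did not overlap for 3 higher and 2 lower genes, where 12.0% and 16.6% of all genes did not. The median difference was -0.02. The gene that passed was Eif2ak2, which encodes PKR, the kinase activated by double-stranded RNA and an interferon-inducible gene. It gave 280, 298 and 249 in shARF, against 183, 195 and 176 in shSCR, with no overlap, a rise of 0.58 ± 0.084 (limma, adjusted p = 0.0155). The call was lost without shARF replicate 1, shSCR replicate 1 or shSCR replicate 3 (limma, highest adjusted p 0.0717), and without both replicate 2 arrays (0.0848). Eif2s2, a subunit of eIF2, differed by 0.23 ± 0.057 at its brightest probeset (limma, adjusted p = 0.0785). It passed with signal above the array median on at least 3 arrays (0.0339), with a pseudocount of 16 (0.0362) and with the intensity trend (0.0031), while the mean of its probesets differed by 0.07 (limma, adjusted p = 0.555). The kinase of uncharged transfer RNA, Eif2ak4 (GCN2), gave 129, 141 and 120.5 in shARF, against 131, 148 and 140 in shSCR. The groups overlapped, with a difference of -0.10 ± 0.080. Eif2ak3 (PERK) and Eif2ak1 (HRI) differed by -0.01 ± 0.084 and -0.09 ± 0.061, and Ppp1r15a (GADD34), the stress-induced phosphatase subunit, by 0.15 ± 0.074. Gcn1 and Eif2b3 were lower without overlap, at -0.16 ± 0.066 and -0.15 ± 0.073, and did not pass (limma, adjusted p = 0.228 and 0.287). Of 12 genes of the endoplasmic reticulum stress response outside the ATF4 arm, 0 passed limma's test, while 3 higher and 0 lower genes had an unadjusted p under 0.05, where 8.76% and 13.4% of all genes did, and the median was 0.12. Those 3 were Xbp1, a transcription factor, and the chaperone genes Dnajb9 and Hyou1, at 0.23 ± 0.083, 0.31 ± 0.124 and 0.27 ± 0.115. Sdf2l1, another folding factor, gave 554.5, 624 and 547 in shARF, against 389.7, 611 and 380.3 in shSCR. As with Trib3, its shSCR replicate 2 lay inside the shARF range, and without that array the gene passed (limma, adjusted p from 0.0328 to 0.564 on leaving out 1 array).

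The mitochondrial synthetases, which nuclear genes encode for the organelle's own translation, had mostly negative differences. Of 16 measured, 1 fell, or 6.25%, where 2.38% of all genes fell, and 0 rose. There 3 differences were above 0 and 13 below, beside 46.8% of all genes above 0. The median was -0.11, beside 0.06 for the cytosolic list and -0.01 for all genes. At an unadjusted p under 0.05, 5 were lower and 0 higher, where 13.4% and 8.76% of all genes were, and the groups did not overlap for 5 of the 16, all lower in shARF, or 31.3%, where 16.6% of all genes were lower. The one that fell was Wars2, at 63.3, 59.2 and 62.5 in shARF, against 79.6, 85.4 and 80.4 in shSCR. The groups were well apart, and the fall was 0.41 ± 0.062 on the log2 scale (a difference of -0.41; limma, adjusted p = 0.0188). The call was lost on leaving out any 1 array (limma, adjusted p from 0.0519 to 0.0713) and without both replicate 2 arrays (0.135). Pars2 gave 46.6, 36.9 and 34.5 in shARF, against 52.2, 50.7 and 53.6 in shSCR, a difference of -0.42 ± 0.112 (limma, adjusted p = 0.0969). On leaving out 1 array it passed without shARF replicate 1 alone (limma, adjusted p from 0.0298 to 0.229). Nars2 and Sars2 differed by -0.30 ± 0.094 and -0.27 ± 0.093 without passing. The difference between the cytosolic and mitochondrial lists was not tested.

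**Figure D4:**
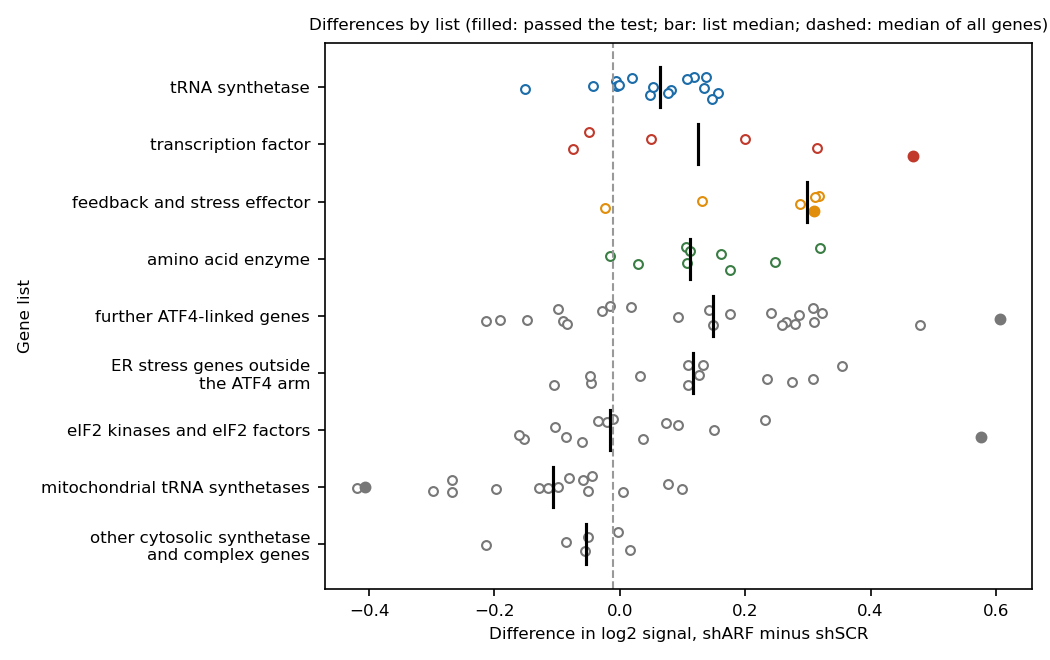
Difference in log2 signal, shARF minus shSCR, of each measured gene (point; filled if it passed), by list; the bar is the list median and the dashed line the median of all genes, -0.01. The medians were 0.30 for the feedback and effector members, 0.15 for the further ATF4-linked genes and -0.11 for the mitochondrial synthetases.

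Cytosolic synthetase genes and complex factors outside the member list numbered 6. Of these 0 passed limma's test, where 4.01% of all genes did. At an unadjusted p under 0.05, 0 were higher and 1 lower, where 8.76% and 13.4% of all genes were. The lower one was Aimp2, a scaffold of the multisynthetase complex, at 996, 1059 and 1001 in shARF, against 1158, 1274 and 1116 in shSCR. Its groups did not overlap, where 16.6% of all genes were lower without overlap. The difference was -0.21 ± 0.071 (limma, adjusted p = 0.153), and Aimp2 passed with the intensity trend (0.0390). The phenylalanine subunits Farsa and Farsb differed by -0.06 ± 0.075 and -0.09 ± 0.062, Eef1e1 by -0.05 ± 0.061, and Aimp1, another scaffold, by -0.00 ± 0.059.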

How the data were processed

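The files hold 1 intensity per probeset and array for 3 shARF and 3 shSCR arrays. The authors processed the arrays with RMA in Affymetrix Expression Console, per the submitters' processing notes, and the deposited intensities, from 3.14 to 12718, are on a linear scale. The version and build are not given in the sources used here. RMA makes the arrays' distributions nearly alike (medians 41.97 to 42.86), so a shift shared by most genes cannot be seen, and folds of dim genes come out smaller.

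Log2 signals entered lmFit and eBayes of limma 3.58.1 under R 4.3.3 (two-sided test, Benjamini-Hochberg over 20310 probesets). A probeset was tested if it exceeded the 25th percentile of its array (14.1 to 14.9) on at least 3 arrays. The design text names SAM, which was not run here. Of 26851 probesets, 21056 carry 1 symbol, 1450 several and 4345 none; symbols come from the platform annotation and RefSeq synonyms. Named genes are all members, plus, from each comparison list, those that passed and up to 4 with the smallest p; others named were chosen after their values were seen. Members and lists were chosen with earlier results of these data known. The code was tested on simulated data. The number of arrays limits the precision.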

Additional observations from a re-analysis of the deposited data

How the results depend on the processing

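The counts over all genes and over the members, both list medians, every measured member, Cdkn2a and the comparison genes with the smallest p were recomputed under 15 alternatives, all planned. The interferon genes, the markers of cell types, the promoter shares and the other comparison genes were not. Under all 15, 0 synthetases were called by limma and both list medians stayed above 0. The synthetase median of 0.06 ranged from 0.01 without shARF replicate 2 to 0.10 without shARF replicate 1, and was 0.04 without both replicate 2 arrays; that of the response members ranged from 0.12 to 0.21. Of all genes, 607 passed; 372 did without a filter on low signal, 996 with signal above the array median on at least 3 arrays, 978 with a pseudocount of 16, 1281 with an intensity trend and robust prior, and 124 without both replicate 2 arrays; leaving out 1 array gave 149 to 333. Of the response members, 2 passed, with 1 without a filter and 0 without both replicate 2 arrays, and 0 to 2 on leaving out 1 array. The deviations of same-numbered arrays from their group means correlated at 0.08, 0.05 and 0.00 over the tested probesets. Those of arrays with different numbers correlated at -0.14 to 0.09. With 3 arrays a group these values cannot decide whether the numbers pair the samples. With a replicate block 336 genes and 1 response member, Nupr1, passed. Of the genes named, the block ended the calls of Ddit4 (limma, adjusted p = 0.105), Gadd45a (0.0732) and Wars2 (0.0658) and added Aldh1l2 (0.0358). Differences near 0 changed sign. Kars was 0.000796 and Stc2 0.00108 after quantile normalization, and Rars was 2.55e-05 with arrays centred on their median. Lars was -0.00732 and Qars -0.00819 without both replicate 2 arrays. On leaving out 1 array Eprs ranged from -0.081 to 0.0407, Kars from -0.0682 to 0.0482, Lars from -0.0137 to 0.106, Qars from -0.0313 to 0.076, Rars from -0.0445 to 0.0489, Tars from -0.125 to 0.0113, Wars from -0.0129 to 0.171, Stc2 from -0.112 to 0.0618 and Phgdh from -0.0551 to 0.0418. The cause of these changes was not tested; settings with fewer arrays test with fewer samples. All measured members lay above the detection level on all 6 arrays. That level is the 25th percentile of each array and not a measured background, so it does not show that dim signal leaves them unaffected. With a pseudocount of 16 the difference of Ddit4 was 0.26 beside 0.31, and that of Atf3 was 0.28 beside 0.31.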
